A study of Homo sapiens with 15 samples.

Results

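Pseudogenes are genomic copies of genes that have lost the ability to make the original protein. The deposited table of HEK293FT cells lists 302 rows annotated as pseudogene, of 11230 listed rows in all, and these 302 rows were taken as members without any filter on their values. HEK293FT is a fast-growing human cell line derived from embryonic kidney cells. The cells carried 1 of 4 guide RNA pools for CRISPR activation of a TrEx long non-coding RNA, or non-targeting guides. The groups are the libraries titled trex0108, trex4039, trex5008 and trex8168 and the non-targeting control, with 3 biological replicate libraries in each, 15 in all. Every group, control included, received dCas9-VP64, the MS2-p65-HSF1 activator, 5 guides, puromycin at 2 ug/mL from 24 hours and harvest at 48 hours. Guides of the TrEx groups sat between 50 and 450 bp ahead of the targeted start site. The target labels of 2 groups go against their titles: libraries titled trex8168 are labelled TrEx5008 and those titled trex5008 are labelled TrEx8168. Groups are named here by title.

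Processed pseudogenes arise when a messenger RNA is reverse transcribed by the LINE-1 machinery and inserted elsewhere in the genome, so they lack introns and often a promoter of their own. Unprocessed pseudogenes are duplicated genes that keep exons and introns and are often still transcribed and spliced. Unitary pseudogenes are single genes that were disabled in one lineage without any copy left. RNA from either kind can carry early stop codons, which expose spliced transcripts to nonsense-mediated decay. Highly expressed housekeeping genes, above all those of ribosomal proteins and elongation factors, have left the most processed copies in the human genome.

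A total of 192 rows carried a gene symbol, 104 a clone name and 6 a locus identifier, spread over 24 chromosomes. By name and chromosome, 189 rows matched GENCODE release 29, which classes 113 of them as processed, 63 as unprocessed and 8 as unitary pseudogenes and gives 5 another type. The remaining 113 rows were not matched. Of the matched rows, 75 have a GENCODE type that marks them as transcribed. Symbols of 174 rows name a parent gene by their form, and a parent was listed for 70 of these, from 62 parent genes. In all, 136 rows overlap another listed row, and 43 lie wholly inside a protein-coding one. Reads from such overlaps, and reads that fit a pseudogene and its parent equally well, cannot be told apart here.

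The similarity of copy and parent is shown by 4 pairs on which later results turn, chosen after their values were seen. Each line gives 150 bases of coding sequence of the parent, or the aligned bases of the pseudogene, from GENCODE release 29 transcripts (GRCh38), 5′ to 3′ on the transcript strand. Capitals mark the bases at which copy and parent differ, and positions in the text are counted from 1 at the first coding base of the parent. EIF4HP1 (chromosome 7, 27495978 to 27498758, hg19) is a processed copy of the translation initiation factor gene EIF4H and differs at G29A, G49A and A164G in the window of bases 15 to 164.
EIF4HP1: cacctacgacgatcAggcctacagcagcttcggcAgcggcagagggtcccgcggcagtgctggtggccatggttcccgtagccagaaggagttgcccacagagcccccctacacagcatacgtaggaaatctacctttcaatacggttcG
EIF4H: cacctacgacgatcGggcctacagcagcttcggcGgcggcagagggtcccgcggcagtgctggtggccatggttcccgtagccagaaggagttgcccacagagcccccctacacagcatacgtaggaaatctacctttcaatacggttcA
SUZ12P (chromosome 17, 29035724 to 29130851, hg19) is an unprocessed copy of SUZ12, a subunit of the Polycomb repressive complex that methylates histone H3. It carries T203C, C220T and C301T in the window of bases 199 to 348, and C301T turns codon 101 of the parent, CGA, into the stop codon TGA.
SUZ12P: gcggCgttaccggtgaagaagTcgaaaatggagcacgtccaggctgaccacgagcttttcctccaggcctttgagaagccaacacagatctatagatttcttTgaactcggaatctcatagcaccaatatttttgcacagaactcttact
SUZ12: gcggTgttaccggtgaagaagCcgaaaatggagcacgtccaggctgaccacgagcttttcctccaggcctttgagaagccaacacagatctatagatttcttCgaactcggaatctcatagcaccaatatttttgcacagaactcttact
EEF1A1P5 (chromosome 9, 135894817 to 135896562, hg19) is a processed copy of EEF1A1, the factor that brings aminoacyl-tRNA to the ribosome, and differs by T294C alone in the window of bases 145 to 294.
EEF1A1P5: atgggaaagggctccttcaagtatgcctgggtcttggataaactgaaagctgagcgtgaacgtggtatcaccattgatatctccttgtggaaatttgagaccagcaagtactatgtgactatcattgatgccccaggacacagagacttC
EEF1A1: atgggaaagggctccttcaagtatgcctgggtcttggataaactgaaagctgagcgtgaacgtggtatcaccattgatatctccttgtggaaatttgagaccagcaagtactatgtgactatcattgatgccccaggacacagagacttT
H3F3AP4 (chromosome 2, 175584527 to 175585526, hg19) is a processed copy of the histone H3.3 gene H3F3A and was identical to it over the first 150 coding bases, so no base is in capitals.
H3F3AP4: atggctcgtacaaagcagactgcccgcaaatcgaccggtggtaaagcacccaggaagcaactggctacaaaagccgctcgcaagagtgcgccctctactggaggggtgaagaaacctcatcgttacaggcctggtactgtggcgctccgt
H3F3A: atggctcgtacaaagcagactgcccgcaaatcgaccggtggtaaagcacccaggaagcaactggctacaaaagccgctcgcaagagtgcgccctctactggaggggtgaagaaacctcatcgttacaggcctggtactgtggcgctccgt

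For 68 pairs the pseudogene transcript was aligned to whole transcripts of the parent, not to its coding sequence alone. Identity had a median of 97.6% and ranged from 81.8% to 100%, and 2 pseudogenes, H3F3AP4 and SRP9P1, were identical to their parent over the aligned bases. The longest run of bases shared without a difference had a median of 172 and reached 1040, and in 51 pairs it was 100 bases or longer.

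The deposited table gives 1 mean normalised count per group, with no spread between libraries, so single values carry no SD here. Its log2 fold changes are on a shrunken scale, and every order by size given here is on that scale unless the ratio of means is named. Listed pseudogenes were mostly low. Their authors' mean over all libraries had a median of 178 and ranged from 2.68 to 55227, against a median of 1245 for the 10928 other listed rows, on a scale that is not per length. Pseudogene loci had a median length of 4491 bp, against 46053 bp for the other rows. Together, pseudogene rows held 0.851% of the summed group means of all listed rows in trex0108, 0.845% in trex4039, 0.860% in trex5008 and 0.869% in trex8168, against 0.836% in control. The share of all pseudogene rows was thus nearly flat over the 5 groups, although many single rows and the classes differed. Processed rows held 0.450%, 0.474%, 0.475% and 0.479% in trex0108, trex4039, trex5008 and trex8168, against 0.428% in control. Unprocessed rows held 0.199%, 0.175%, 0.184% and 0.196% in the same order, against 0.207% in control. These differences were not tested. EEF1A1P5 alone held between 18.8% (control) and 20.3% (trex4039) of the pseudogene sum.

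The 10 rows of highest mean were copies of translation, histone and mitochondrial genes or clone-named loci: EEF1A1P5, MTATP6P1, RPS2P5, RPS2P46, RP11-3P17.3, H3F3AP4, RP11-561C5.4, RP11-396K3.1, RPL15P3 and AC011330.6. EEF1A1P5 had authors' means of 54312 in trex0108, 55551 in trex4039, 56847 in trex5008 and 59821 in trex8168, against 49605 in control. It was lowest in control and highest in trex8168, and per the authors' deposited table it was called higher in trex5008 (log2 fold change 0.19, adjusted p 0.0162) and trex8168 (0.26, 0.00284). MTATP6P1, a nuclear copy of the mitochondrial ATP synthase subunit gene, had authors' means of 26999 in trex0108, 23648 in trex4039, 23591 in trex5008 and 31062 in trex8168, against 26682 in control. None of its 4 comparisons passed an adjusted p of 0.05 per the authors' deposited table, where the lowest was 0.063 in trex8168. RPS2P5, a copy of a small ribosomal subunit protein gene that lies inside the kinase gene TAOK3, had authors' means of 20422, 21336, 21806 and 24768 in trex0108, trex4039, trex5008 and trex8168, against 19376 in control. It was called higher in trex8168 alone, with a log2 fold change of 0.33 (adjusted p 6.95e-04) per the authors' deposited table.

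Each row of the table passed an adjusted p of 0.1 in 1 or more comparisons, so counts of calls describe the list and support nothing by themselves. Per the authors' deposited table, 230 of the 302 pseudogene rows passed an adjusted p of 0.05 in 1 or more comparisons, where 85.8% of all listed rows did. In trex0108, 15 rows were higher and 1 lower at that threshold, which is 5.30% of 302 tested rows, against 5.89% of all listed rows. In trex4039, 101 were higher and 81 lower, 60.5% of 301 tested rows, against 70.7% of all listed rows. In trex5008, 63 were higher and 36 lower, 37.8% of 262, against 54.1%. In trex8168, 28 were higher and 34 lower, 23.0% of 270, against 21% of all listed rows. The difference between pseudogene rows and all listed rows was not tested, and a call in one comparison that is missing in another is no test between groups either. By direction in trex8168, 12.6% of tested pseudogene rows were lower, against 6.45% of all listed rows, and 10.4% were higher, against 14.6%. The median log2 fold change over pseudogene rows per the authors' deposited table was 0.06 in trex0108, 0.18 in trex4039, 0.12 in trex5008 and 0.07 in trex8168, and over all listed rows 0.02, 0.03, 0.02 and 0.04 in the same order. The 4 comparisons share the control libraries, so their values are given side by side and are not independent of each other. In all 16, 182, 99 and 62 pseudogene rows called in trex0108, trex4039, trex5008 and trex8168, the absolute deposited log2 fold change lay below that of the log2-transformed ratio of means (pseudocount 1). In 11, 67, 11 and 7 of them the ratio of means gave more than 1.5 times the deposited value. Among rows named with their deposited values elsewhere, it gave 1.42 for RPS3AP25, -0.83 for RPL12P4 and -1.01 for AIMP1P1 in trex4039, and 0.90 for FTH1P11 in trex5008.

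**Figure D1:**
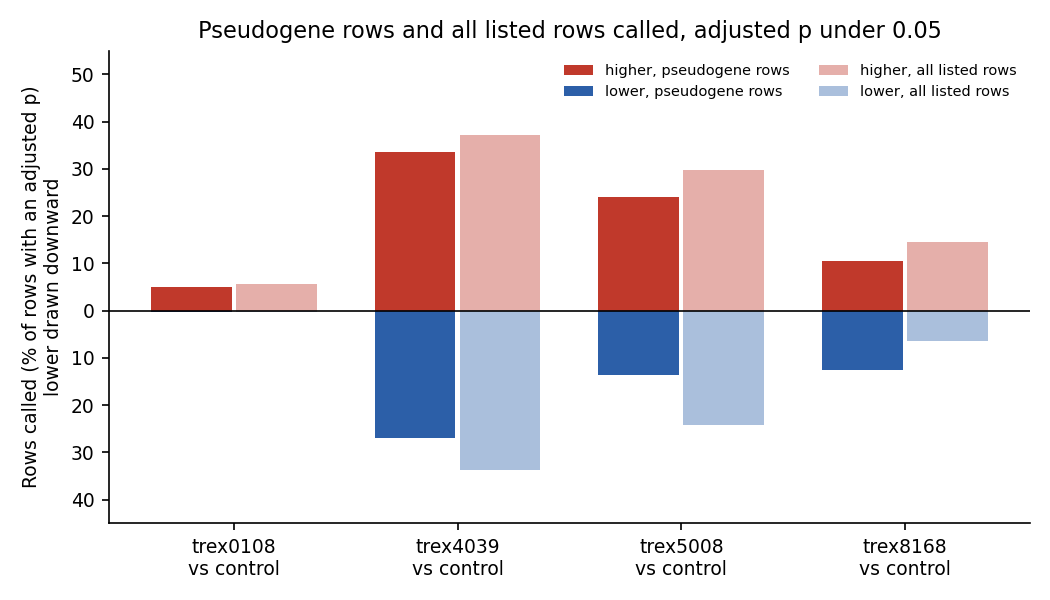
Percentage of tested rows called at an adjusted p under 0.05 by the authors (y axis; higher drawn upward, lower downward) in each of the 4 comparisons with control, for pseudogene rows (dark bars) and all listed rows (pale bars). In trex8168 the lower bar of pseudogene rows reaches 12.6%, against 6.45% for all listed rows.

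The annotated class of a pseudogene divided these changes. Among processed pseudogenes, calls per the authors' deposited table were 1 higher and 0 lower in trex0108, 50 and 11 in trex4039, 34 and 4 in trex5008, and 21 and 5 in trex8168, of 113 rows. Among unprocessed pseudogenes they were 10 higher and 0 lower in trex0108, 10 and 28 in trex4039, 7 and 16 in trex5008, and 0 and 11 in trex8168, of 63 rows. Called processed copies were mostly higher in trex4039, trex5008 and trex8168. Called unprocessed copies were mostly lower in trex8168. Over all 63 rows they were also mostly lower in trex4039 and trex5008, but there the balance varied with the rows taken. Among the 36 unprocessed rows that overlap no other listed row, 7 were higher and 4 lower in trex5008, and 7 and 10 in trex4039. Their median log2 fold changes on the deposited scale were 0.02 and -0.12. Among the 29 under 50% GC, 6 were higher and 3 lower in trex5008, and 10 and 8 in trex4039. All listed rows were higher in 37.1% and lower in 33.7% of tests in trex4039, 29.8% and 24.3% in trex5008, 14.6% and 6.45% in trex8168, and 5.65% and 0.249% in trex0108. The median log2 fold change of processed pseudogenes was 0.12, 0.28, 0.18 and 0.17 in trex0108, trex4039, trex5008 and trex8168 per the authors' deposited table. For unprocessed pseudogenes it was -0.02, -0.20, -0.06 and -0.07 per the authors' deposited table. The 8 unitary pseudogenes had medians of -0.10, -0.41, -0.26 and -0.28, and 7 of them were lower and 1 higher in trex4039. The difference between classes was not tested.

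The order of the group means showed the same division. Control had the lowest of the 5 authors' means in 79 of 113 processed pseudogenes (69.9%), and in 35.3% of the listed rows of other types. Among unprocessed pseudogenes, trex4039 was lowest in 30 of 63 (47.6%) and control highest in 23 (36.5%), and in the listed rows of other types these shares were 35.3% and 24.4%. The ratio of the highest to the lowest group mean had a median of 1.49 over pseudogene rows and of 1.29 over the other listed rows.

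**Figure D2:**
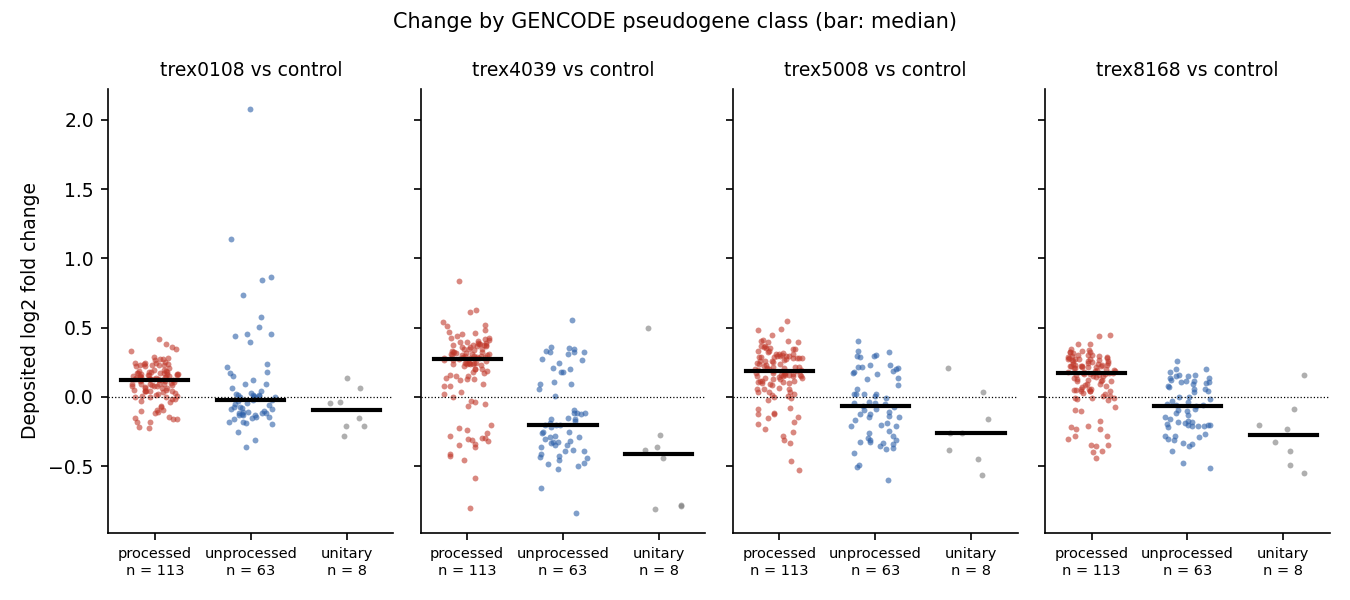
Deposited log2 fold change against control (y axis) of each processed (n = 113), unprocessed (n = 63) and unitary (n = 8) pseudogene row, 1 panel per comparison, with a bar at the median. Processed rows centre above 0 in all 4 panels (0.12 to 0.28), while in trex0108 the points farthest up are unprocessed.

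Among unprocessed pseudogenes, base composition moved with the changes in trex4039 and trex5008. It moved in another way in trex0108 and trex8168, where fewer rows were called. The median GC content of the transcript was 46.7% for processed, 50.6% for unprocessed and 59.4% for unitary pseudogenes. Listed protein-coding genes that were higher in trex4039 had a median GC of 41.6%, and those lower 59.9%. Protein-coding genes split the same way in trex8168, with 45.3% for the 1035 higher and 56.8% for the 297 lower. Unprocessed pseudogenes showed a like split in trex4039, with 41.3% for the 10 higher and 57.5% for the 28 lower. Processed pseudogenes showed no such split in trex4039, where the medians were 45.7% for the 50 higher and 46.3% for the 11 lower. In trex5008 they were 44.4% for the 34 processed rows that were higher and 52.5% for the 4 lower. Below 50% GC, 39 of 78 processed pseudogenes were higher and 6 lower in trex4039, and 10 of 29 unprocessed were higher and 8 lower. At 50% GC or more, 11 of 35 processed were higher and 5 lower, and 0 of 34 unprocessed were higher and 20 lower. In trex5008 the median GC was 43.3% for the 7 unprocessed rows that were higher and 60.1% for the 16 lower. Listed protein-coding genes split alike there, with 41.4% for the 2031 higher and 60.4% for the 1438 lower. In trex8168 it was 48.3% for the 21 processed rows that were higher and 39.5% for the 5 lower, and 47.3% for the 11 unprocessed rows that were lower and 51.4% for those not called. In trex0108 the 10 unprocessed rows that were higher had 55.1%, and those not called 49.3%. Protein-coding genes in trex0108 had 53.8% for the 372 higher, 58.5% for the 16 lower and 47.7% for those not called. In trex5008 the unprocessed median of the log2 fold changes of the authors' deposited table was 0.17 below 50% GC and -0.20 at 50% or more, so its sign depended on GC content. In trex8168 the class medians were 0.17 below and 0.16 above that value for processed rows, and -0.05 and -0.08 for unprocessed rows. The part of GC content in these changes was not tested.

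**Figure D3:**
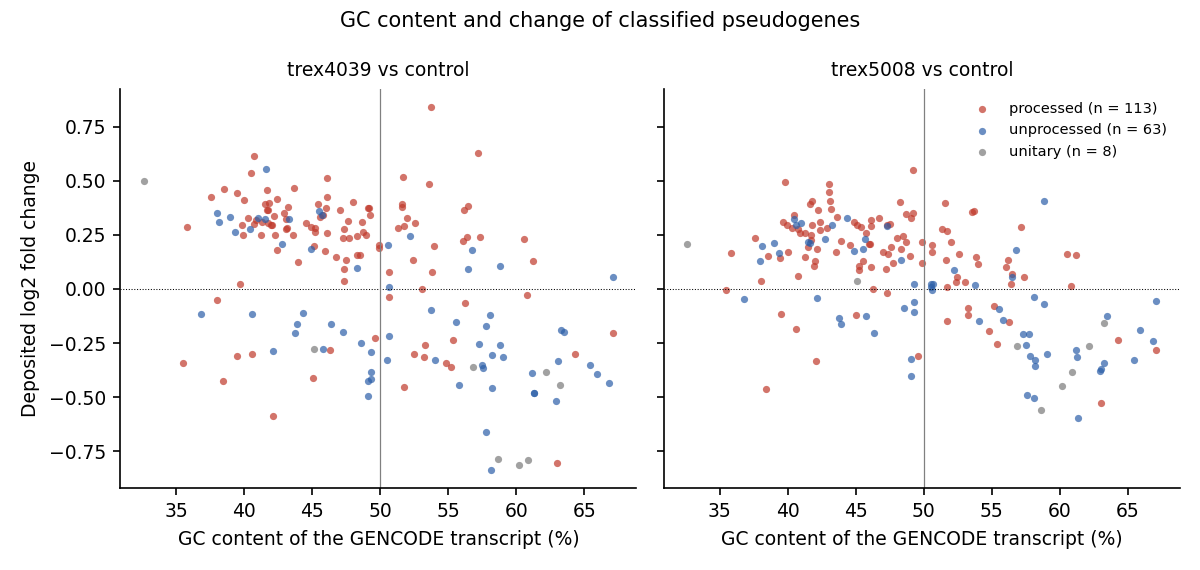
Deposited log2 fold change against control (y axis) by GC content of the GENCODE transcript in percent (x axis) for processed, unprocessed and unitary pseudogenes in trex4039 and trex5008, with a grey line at 50%. Above 50% GC in trex4039, 0 of 34 unprocessed rows were called higher and 20 lower, while processed rows lie on both sides of 0.

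Copies of cytosolic ribosomal protein genes were the largest family with a named parent, at 35 rows, all processed. Calls per the authors' deposited table were 15 higher and 3 lower in trex4039, 10 and 0 in trex5008, 7 and 0 in trex8168, and 0 and 0 in trex0108. Of all listed rows, 37.1% were called higher and 33.7% lower in trex4039, 29.8% and 24.3% in trex5008, and 14.6% and 6.45% in trex8168, and the family was not tested against them. RPL13AP25 (chromosome 13, 55014792 to 55015478) had authors' means of 145.2 in trex0108, 213.7 in trex4039, 153.1 in trex5008 and 149.0 in trex8168, against 113.6 in control. RPS3AP25 (chromosome 7, 94324238 to 94325151) had 44.2, 75.7, 46.2 and 34.2 in the same 4 groups, against 27.7 in control. Both were highest in trex4039, with log2 fold changes of 0.63 and 0.61 and adjusted p of 1.72e-05 and 8.05e-05 per the authors' deposited table. RPL21P28 was called in trex5008 alone (0.48, adjusted p 2.18e-04), and RPS3AP5, which lies in CCSER2, in trex5008 (0.31) and trex8168 (0.39), per the authors' deposited table. RPL12P4 went the other way in trex4039, at -0.45 with an adjusted p of 0.00551 per the authors' deposited table.

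Smaller families had few rows to set beside those shares, and no pattern is read from them. Of 6 copies of translation factor genes, 1, 1, 3 and 4 were called higher and 0 lower in trex0108, trex4039, trex5008 and trex8168 per the authors' deposited table. Of 6 chromatin and HMG rows, 1, 3, 4 and 2 were higher and 0, 0, 1 and 0 lower in the same groups. All 4 ferritin heavy chain copies had a positive log2 fold change in trex4039 and in trex5008, and 2 were called higher in each, with FTH1P11 at 0.55 in trex5008 (adjusted p 6.26e-04) per the authors' deposited table. UBBP1 (chromosome 2, 137086837 to 137087501), a copy of the ubiquitin gene UBB, led the named rises of trex4039 on the deposited scale. Its authors' means were 37.7 in trex0108, 68.4 in trex4039, 33.9 in trex5008 and 24.8 in trex8168, against 15.9 in control, and its log2 fold change of 0.84 in trex4039 had an adjusted p of 2.73e-08 per the authors' deposited table. Its log2 ratio of means was 2.04, and that of the clone-named RP11-734J24.1, singled out after its values were seen, was 2.49, with authors' means of 94.98 in trex4039 and 16.1 in control and a deposited value of 0.51.

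In trex0108 the 6 largest rises on the deposited scale, among rows with a mean of at least 10, were all of unprocessed pseudogenes. Below that mean the unmatched clone-named rows RP13-638C3.6 and CTB-118N6.1 had 0.94 and 0.65, and ESPNP 0.58, per the authors' deposited table. Each lies above the 0.50 of NCOR1P2, the smallest of the 6. As a log2 ratio of means, CXCR2P1 stood at 3.78, APOC1P1 at 1.77, CYP4F23P at 1.48, ARHGEF34P at 1.139 and NCOR1P2 at 1.33, each over 1.5 times its deposited value. CXCR2P1 (chromosome 2, 218923878 to 218930425), a copy of a chemokine receptor gene, had authors' means of 127.5 in trex0108, 13.3 in trex4039, 8.11 in trex5008 and 14.98 in trex8168, against 8.34 in control. Its trex0108 mean stood apart from the other 4, with a log2 fold change of 2.08 (adjusted p 1.86e-46) per the authors' deposited table. CXCR2P1 lies inside RUFY4, a RUN and FYVE domain gene, whose authors' mean was 4548 in trex0108, against 41.5 in control, and reads of the pair cannot be told apart. APOC1P1 (chromosome 19, 45430061 to 45436215), a copy of the lipoprotein gene APOC1, had authors' means of 117.4 in trex0108, 29.001 in trex4039, 34.4 in trex5008 and 38.7 in trex8168, against 33.6 in control. Its log2 fold change was 1.138 in trex0108, and that of APOC1, which lies 7086 bp away, was 0.76, with adjusted p of 6.65e-14 and 2.08e-07 per the authors' deposited table. APOC1 had authors' means of 943.5 in trex0108 and 459.2 in control. The pair shares at most 72 bases in a row without a difference, at 89.7% identity.

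HIST2H2BD (chromosome 1, 149814551 to 149815100), a pseudogene of the histone H2B family within a histone cluster, had authors' means of 339.1 in trex0108, 129.9 in trex4039, 111.2 in trex5008 and 161.9 in trex8168, against 155.8 in control. It was called higher in trex0108 (log2 fold change 0.87, adjusted p 2.18e-10) and lower in trex5008 (-0.34, adjusted p 0.023) per the authors' deposited table. The histone H4 genes HIST2H4B and HIST2H4A, 10507 and 2632 bp away, also rose in trex0108, with log2 fold changes of 1.10 and 1.27 per the authors' deposited table. HIST2H2BD lies inside the listed row XLOC_004882, and reads of the 2 rows cannot be told apart. XLOC_004882 was also higher in trex0108, at 0.42 (adjusted p 7.67e-07) per the authors' deposited table. CYP4F23P, of the cytochrome P450 4F family, had authors' means of 71.4 in trex0108, against 24.99 in control, and ARHGEF34P 88.7 in trex0108, against 39.7 in control. Their log2 fold changes were 0.84 and 0.73 per the authors' deposited table. NCOR1P2, a fragment of a nuclear receptor corepressor gene, followed with authors' means of 30.1 in trex0108 and 11.3 in control and a log2 fold change of 0.50 per the authors' deposited table (adjusted p 0.0132). The single fall in trex0108 was that of the clone-named row RP11-763B22.7, with authors' means of 82.3 in trex0108 and 128.8 in control and a log2 fold change of -0.47 per the authors' deposited table.

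**Figure D4:**
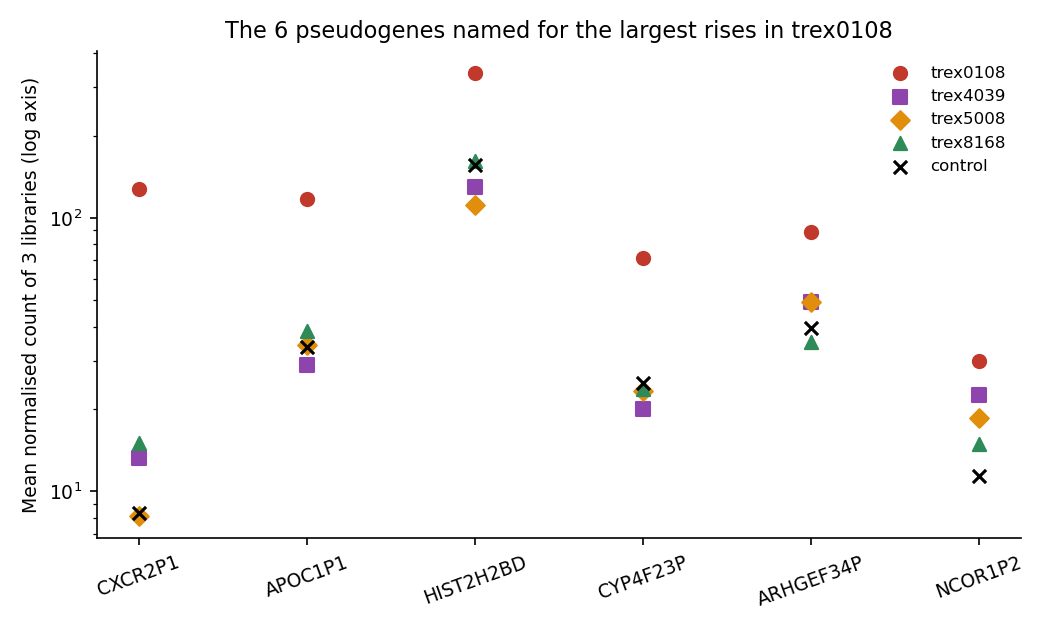
Authors' mean normalised count of 3 libraries (log y axis) in each of the 5 groups for the 6 pseudogenes named for the largest rises in trex0108. The trex0108 point is the highest for each of them, as for CXCR2P1 with 127.5 against 8.34 in control.

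Among the largest falls in trex4039 and trex5008 were those of a clone-named row and of helicase, WASH and unitary copies. XXbac-B562F10.11 (chromosome 22, 20787098 to 20789914) had authors' means of 176.5 in trex0108, 90.1 in trex4039, 109.5 in trex5008 and 105.9 in trex8168, against 203.0 in control. It led the named falls of trex4039, trex5008 and trex8168 on the deposited scale, at -0.91, -0.71 and -0.75 per the authors' deposited table. A second row of that symbol had -0.36, -0.30 and -0.16 in these groups and was called in trex4039 alone. Both rows lie inside the protein-coding row XLOC_041473, which had -0.30, -0.22 and 0.01 per the authors' deposited table. By the log2 ratio of means the order of falls changed: PTPRVP had -1.19 in trex4039 and RP11-995C19.2 -1.22 in trex8168, where the leading XXbac-B562F10.11 row had -1.16 and -0.93. A second RP11-995C19.2 row, with a mean of 1231, had a log2 fold change of 0.04 in trex8168 per the authors' deposited table. DDX12P (chromosome 12, 9546878 to 9600816), a copy of a DNA helicase gene, had authors' means of 3134, 1884, 2393 and 2597 in trex0108, trex4039, trex5008 and trex8168, against 3444 in control. Its log2 fold changes in trex4039, trex5008 and trex8168 were -0.84, -0.50 and -0.39, with an adjusted p of 6.21e-49 in trex4039 per the authors' deposited table. RP11-22B23.1 overlaps DDX12P and fell with it, at -0.83 in trex4039 per the authors' deposited table. WASH5P, a copy from a family of subunits of an actin-nucleating complex on endosomes, had authors' means of 553.7, 331.3, 413.6 and 457.1 in the same groups, against 623.1 in control. It was lower in trex4039, trex5008 and trex8168, at -0.81, -0.53 and -0.40 per the authors' deposited table.

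Unitary pseudogenes were among these falls. PTPRVP (chromosome 1, 202128318 to 202159938), the remnant of a receptor tyrosine phosphatase gene that is intact in mouse, had authors' means of 110.8 in trex0108, 58.9 in trex4039, 88.7 in trex5008 and 79.3 in trex8168, against 136.0 in control. FER1L4, of the ferlin family of membrane proteins, had 362.6, 213.4, 300.3 and 274.7, against 409.0 in control, and TMEM198B had 1339, 773.2, 911.6 and 1031, against 1377. All 3 were called lower in trex4039, trex5008 and trex8168, with log2 fold changes in trex4039 of -0.81, -0.79 and -0.78 per the authors' deposited table. CETN4P, of the centrin family, was the unitary row that was higher in trex4039, at 0.50 per the authors' deposited table.

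In trex5008 and trex8168 other duplicated copies were low. POM121B, of the family of the nuclear pore gene POM121, had authors' means of 1977 in trex0108, 1349 in trex4039, 1232 in trex5008 and 1695 in trex8168, against 1965 in control. It was called lower in trex4039 (-0.48) and trex5008 (-0.60) per the authors' deposited table. FAM86HP was lower in trex5008 at -0.49, and PMS2P3, a copy of a mismatch repair gene, in trex8168 at -0.52, per the authors' deposited table. The fall of PMS2P3 was not particular to trex8168: it had -0.36 in trex0108 (not called), -0.50 in trex4039 and -0.40 in trex5008. It lies inside the listed row XLOC_060026, which had -0.26 in trex8168 (adjusted p 0.00345 per the authors' deposited table). A second PMS2P3 row had -0.30 in trex8168 and was not called there (adjusted p 0.121 per the authors' deposited table). Among rises, the clone-named AC010468.1 led in trex5008 at 0.65, and H3F3AP6 at 0.45 and MEMO1P1 at 0.44 led in trex8168, per the authors' deposited table. H3F3AP6 was also called higher in trex4039 and trex5008, at 0.28 in each. Its parent H3F3A was called higher in trex8168, at 0.26, per the authors' deposited table.

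EIF4HP1 and RP11-396K3.1 were called higher in all 4 comparisons. EIF4HP1 had authors' means of 251.8 in trex0108, 273.8 in trex4039, 246.1 in trex5008 and 236.0 in trex8168, against 182.4 in control. Its log2 fold changes were 0.38, 0.49, 0.36 and 0.31, with adjusted p of 0.018, 3.42e-05, 0.00424 and 0.0395 per the authors' deposited table. Its parent EIF4H had 0.03, 0.01, 0.04 and 0.13 and was not called in any of the 4 per the authors' deposited table. RP11-396K3.1 (chromosome 7, 72569024 to 72621664) had authors' means of 4261, 4611, 4798 and 4473 in trex0108, trex4039, trex5008 and trex8168, against 3688 in control. It lies inside POM121, whose log2 fold change in trex5008 was -0.42 where that of RP11-396K3.1 was 0.36 per the authors' deposited table. Both pseudogene rows had their lowest mean in control, which enters each comparison, so the 4 calls are not separate findings.

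EFTUD1P1 (chromosome 15, 84748276 to 84828638), a copy of a gene for a ribosome assembly GTPase, was called in opposite directions. Its authors' means were 242.8 in trex0108, 239.1 in trex4039, 359.8 in trex5008 and 216.8 in trex8168, against 282.9 in control. The log2 fold change was 0.29 in trex5008 (adjusted p 0.0219) and -0.31 in trex8168 (adjusted p 0.0409) per the authors' deposited table. Its parent EFTUD1 was higher in both, at 0.37 and 0.18 per the authors' deposited table. The direct difference between trex5008 and trex8168 was not tested.

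For 70 pseudogenes with a listed parent, the log2 fold changes of both had the same sign in 49 pairs in trex0108, 55 in trex4039, 60 in trex5008 and 55 in trex8168. Both were called higher in 1, 17, 10 and 8 pairs of these groups and both lower in 0, 6, 1 and 1, per the authors' deposited table. Of all listed rows, 5.65%, 37.1%, 29.8% and 14.6% were called higher and 0.249%, 33.7%, 24.3% and 6.45% lower in these groups. Parents by themselves were called higher in 1, 28, 38 and 27 pairs and lower in 0, 11, 5 and 1. Where both sets lean the same way, signs can agree without a link within pairs, and agreement was not tested. The pseudogene was higher and the parent not called in 2, 13, 8 and 3 pairs. The parent was called and the pseudogene not in 0, 13, 31 and 18. In trex4039 the median log2 fold change was 0.28 for the pseudogenes and 0.09 for the parents per the authors' deposited table, and the pseudogene value was the greater in 49 of 70 pairs. In trex8168 the medians were 0.12 and 0.16, and the pseudogene value was the greater in 35. Pairs of near-identical sequence can trade reads, so these counts do not separate a copy's own RNA from its parent's.

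Among pairs that moved together in trex4039 were SETP14 and SET (0.40 and 0.20), RAC1P2 and RAC1 (0.40 and 0.18) and PSMC1P1 and the proteasome subunit gene PSMC1 (0.34 and 0.24), per the authors' deposited table. Pairs called lower together included MST1P2 and MST1 (-0.48 and -0.80) and HERC2P2 and the ubiquitin ligase gene HERC2 (-0.33 and -0.41) per the authors' deposited table. The identical pair H3F3AP4 and H3F3A was not called alike in each group. H3F3AP4 had authors' means of 6187 in trex0108, 7458 in trex4039, 7555 in trex5008 and 7162 in trex8168, against 5604 in control. H3F3A had 6998, 7045, 7324 and 8262 in these groups, against 6853 in control. The pseudogene was called higher in trex4039 (0.38), trex5008 (0.40) and trex8168 (0.33), and the parent in trex8168 alone (0.26), per the authors' deposited table. The 411 aligned coding bases of the pair hold no difference, so coding reads of both loci cannot be told apart.

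Pseudogene and parent were called in opposite directions in 3 pairs in trex4039, 1 in trex5008 and 1 in trex8168. SUZ12P had authors' means of 2889 in trex0108, 2550 in trex4039, 2863 in trex5008 and 2696 in trex8168, against 3132 in control. Its parent SUZ12 had 5455, 7186, 5940 and 5392, against 5157 in control. In trex4039 the copy with the stop codon was lower, with a log2 fold change of -0.28 (adjusted p 1.11e-04), and SUZ12 higher, with 0.46 (adjusted p 3.84e-19), per the authors' deposited table. SUZ12P shares 94.9% identity with SUZ12 and overlaps another listed row. CBX3P4, a copy of the heterochromatin protein gene CBX3 with 89.8% identity, was lower in trex4039 and trex5008 (-0.43 and -0.46) where CBX3 was higher (0.26 and 0.24), per the authors' deposited table. AIMP1P1, a copy of a gene for a scaffold of the tRNA synthetase complex, was lower in trex4039 (-0.31, adjusted p 0.0466) where AIMP1 was higher (0.23), per the authors' deposited table, with authors' means of 10.1 for the copy in trex4039 and 21.3 in control. The pair of trex8168 was EFTUD1P1 and EFTUD1.

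**Figure D5:**
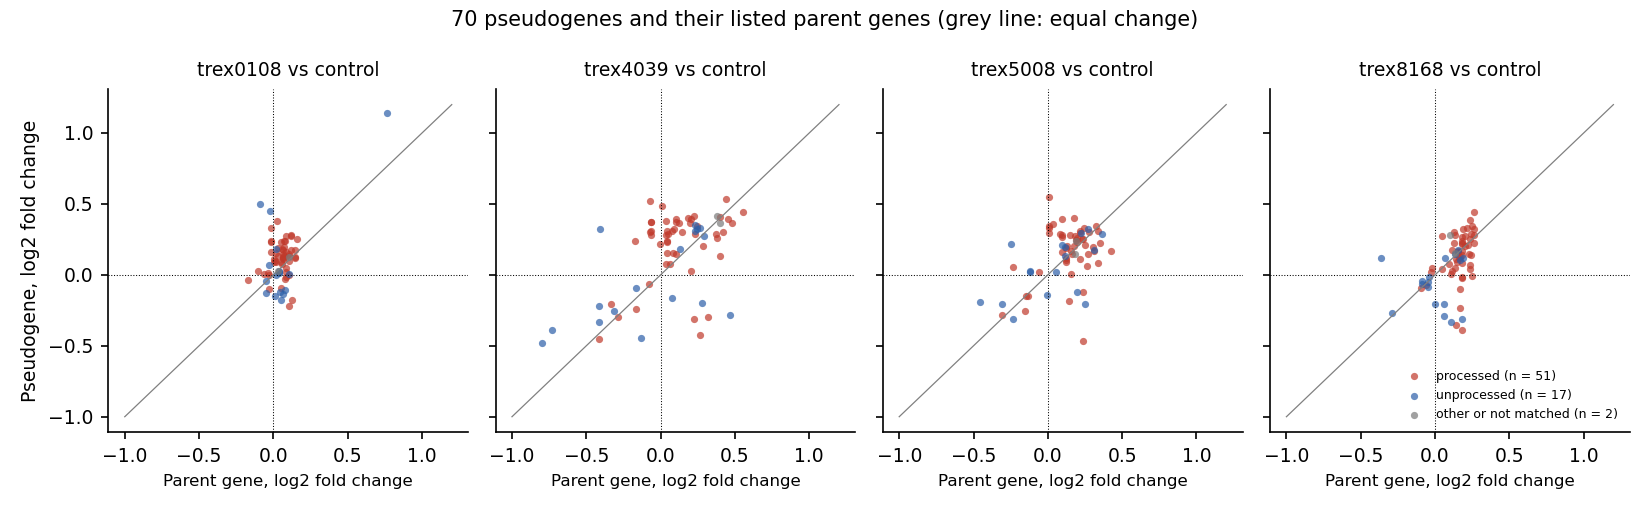
Deposited log2 fold change of 70 pseudogenes (y axis) against that of their listed parent gene (x axis), 1 panel per comparison with control; the grey line marks equal change. In trex4039, 49 of 70 points lie above that line, and SUZ12P lies at -0.28 where SUZ12 is at 0.46.

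Factors of nonsense-mediated decay, which acts on transcripts with early stop codons, were listed for 4 of 10 genes. UPF1, the helicase of the pathway, was lower in trex4039 and trex5008 (-0.24 and -0.23), and its partner UPF2 higher in both (0.27 and 0.31), per the authors' deposited table. UPF3B was higher in trex5008 (0.24) and SMG9 lower in trex4039 (-0.22), while none of the 4 was called in trex0108 or trex8168 per the authors' deposited table.

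Of 9 markers of HEK293 cells 5 were listed, and of 6 fibroblast and blood markers COL3A1 alone, which cannot test the cell type because the list holds changed rows only. KRT8, an epithelial keratin, had authors' means between 4002 (trex4039) and 5013 (trex8168), against 4548 in control. COL3A1, a collagen of connective tissue, was lower in trex4039 and trex5008, at -0.33 and -0.29 per the authors' deposited table.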

How the data were processed

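RNA sequencing of 15 HEK293FT libraries in 5 groups of 3 was analysed from 1 deposited table. The tools STAR 2.5.1b, Bowtie2 2.2.1, DESeq2 1.14.1, DESeq, Cufflinks and bedtools and the builds GRCh37 and hg19 stand in the submitters' processing notes without their roles; per the labels' protocols the library kit keeps strand, while how counting treated strand is not stated in the sources used here. The deposited signal columns hold the authors' mean normalised count per group and over all libraries. Each TrEx group is set against control in the deposited log2 fold changes, and the p-value columns as deposited are adjusted p, with the authors' own call at 0.1. Table starts count from 0 and were raised by 1. Values per library were not used (0 per-sample columns left out), so depth is unknown, no SD or interval is given, and the count model planned with edgeR could not be run; rows with an adjusted p from the authors under 0.05 were counted. Counting and parent matching were tested on simulated data.

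Members are the rows of type pseudogene; 7 rows of other pseudogene types were left out. The members, gene lists and class comparison were chosen with earlier results of these data known, and the class, GC and mean splits after seeing the data. Classes, GC content and sequences came from GENCODE release 29 (GRCh38), matched by name and chromosome. A GC check over all pseudogene rows is void, since 189 of 302 have a value; within the processed, unprocessed and unitary classes all have one. The parent is the symbol without its final P and number, as a listed row of another type; for the 2 parents with several rows the row of highest mean was used. Pairs were aligned with blastn 2.17.0 (e-value 1e-05) to the best-scoring coding transcript. Rows named are, per comparison, the 6 largest rises and 6 largest falls among rows past an adjusted p of 0.05 with a mean of 10 or more, those called alike in all 4 comparisons or in opposite directions, the 10 of highest mean, and pairs with both members called; further rows named with a family or class, such as CETN4P, were chosen after their values were seen. Python 3.11.15, pandas 2.3.3 and matplotlib 3.10.9 were used. Alternatives were a threshold of 0.1 or 0.01, a mean of at least 50, parent-form symbols only, non-overlapping rows only, log2 ratios of means with a pseudocount of 1 or 0.5, and 1 pair per parent.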

Additional observations from a re-analysis of the deposited data

How the results depend on the processing

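Of 90 alternatives tried on the counts, medians and shares, 59 stayed within 1.5 times the reported value, 29 moved further and 2 changed sign; all 89 single-row values kept their direction as a log2 ratio of means, at 1.04 to 6.19 times the deposited size. Counts were compared as raw counts, so where fewer rows or pairs were kept, the outcome also reflects how many were kept and does not measure stability. The 4 same-sign counts of pairs stayed within 1.5 times under each alternative. With both means at least 50, the sign was the same in 40, 44, 48 and 46 of 54 pairs in trex0108, trex4039, trex5008 and trex8168. Counts of calls moved further under 12 of 20 alternatives and stayed within 1.5 times under the threshold of 0.1, under 0.01 in trex0108 (12), and with a mean of at least 50 in trex4039 (138), trex5008 (97) and trex8168 (59). At an adjusted p under 0.01 they were 119 in trex4039, 55 in trex5008 and 32 in trex8168. With parent-form symbols only (144 rows) they were 5, 80, 50 and 34 in trex0108, trex4039, trex5008 and trex8168, and without rows that overlap another listed row (166 rows) 9, 91, 53 and 32. With a mean of at least 50, trex0108 had 8. The trex8168 median log2 fold change of pseudogene rows was 0.13 as a log2 ratio of means with a pseudocount of 1 or 0.5 and 0.12 with a mean of at least 50. Without overlapping rows the pseudogene share was 0.561% in trex0108 and 0.546% in control.

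For classes, with splits chosen after seeing the data, processed medians at 50% GC or more were 0.048, 0.13 and 0.068 in trex0108, trex4039 and trex5008. Unprocessed medians below 50% GC were -0.0028 in trex0108, -0.11 in trex4039 and, with the sign changed, 0.17 in trex5008; at 50% GC or more they were -0.046, -0.31 and -0.20. Without overlapping rows they were -0.00094, -0.12, 0.024 and -0.0022 in trex0108, trex4039, trex5008 and trex8168, so the sign changed in trex5008 too, and with a mean of at least 50 the value was -0.030 in trex0108. The cause was not tested. No paired analysis was possible because the deposited table holds group means only; for the same reason leaving out a replicate and comparing TMM with size factors were not run. Depth is unknown.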

Other observations

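RPS3AP47, a processed copy of the ribosomal protein gene RPS3A singled out after its values were seen, had authors' means of 615.5 in trex0108, 938.9 in trex4039, 650.5 in trex5008 and 548.3 in trex8168, against 366.0 in control. The highest of these means is 2.57 times the lowest, while the log2 fold change in trex4039 was 0.34 (adjusted p 0.0218) per the authors' deposited table. KLKP1, an unprocessed pseudogene of the kallikrein protease family, was highest in trex5008, with authors' means of 157.5 in trex0108, 144.2 in trex4039, 244.2 in trex5008 and 172.8 in trex8168, against 115.6 in control. It was called in trex5008 alone, at 0.41 (adjusted p 0.0129) per the authors' deposited table. CRYBB2P1, a copy of a lens crystallin gene, was highest in control, with 53.2, 32.1, 53.3 and 42.6 in trex0108, trex4039, trex5008 and trex8168, against 77.0 in control.

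The split of calls also varied with the level of a row. Of 79 tested pseudogene rows with a mean under 50, 21 (26.6%) were higher and 23 (29.1%) lower in trex4039. Of the 1321 other listed rows tested at that level, 106 (8.02%) were higher and 597 (45.2%) lower. Of 86 tested pseudogene rows with a mean of 500 or more, 31 (36%) were higher and 25 (29.1%) lower in trex4039. Of the 7389 other listed rows at that level, 3404 (46.1%) were higher and 2256 (30.5%) lower. In trex8168 the share called lower was 6.25% of tested pseudogene rows with a mean under 50, against 15.1% of the other listed rows, and 15.1% of those with a mean of 500 or more, against 4.18%. The excess of lower calls over all levels in trex8168 (12.6% against 6.45% of all listed rows) was thus not seen below a mean of 50. The differences were not tested.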
